A study of Mus musculus with 5 samples.

Results

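Digestive enzymes and secretory proteins of the pancreatic acinar cell were followed as a set of 31 genes, of 27998 in the count tables, in single-cell libraries of mouse pancreas and pancreatic tumours. The set was a list of named genes: 3 elastases, 3 chymotrypsins, 6 trypsinogens, 2 carboxypeptidases, 6 enzymes or cofactors of fat digestion, 3 amylases, a ribonuclease, a kallikrein, 4 zymogen granule proteins and 2 protease inhibitors. All 31 were present in each table. A barcode, the label of 1 droplet, was called acinar where at least 30% of its unique molecular identifiers (UMIs, each standing for 1 captured transcript) came from these genes, which held for 2143 of 10718 barcodes kept.

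Acinar cells make the enzymes that digest protein, fat, starch and nucleic acid in the gut. Most are stored in zymogen granules as inactive precursors, and trypsin, once formed from trypsinogen, activates the other protease precursors, so the cell also makes trypsin inhibitors. Acinar cells that enter acinar-to-ductal metaplasia, a known early step towards pancreatic cancer in mouse models, lose enzyme expression.

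The 5 libraries, 1 for each group, came from untreated mice and were made with the 10x Genomics droplet kit that reads the 3′ ends of transcripts. Normal pancreas (60 days of age), early KIC (40 days), late KIC (60 days) and late KPC (6 months) had a mixed C57BL/6 and FVB background, and late KPfC (60 days) was C57BL/6. KIC, KPfC and KPC are genetically engineered mouse models of pancreatic cancer. The labels name the models and give neither their alleles nor the number of animals in a library. With 1 library a group, how much animals of a group vary is unknown: no test was run, intervals are 95% and cover counting error only, and group, age and library cannot be told apart. A gene was called lower or higher when its ratio passed 2-fold with at least 20 UMIs over both libraries.

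Kept barcodes numbered 836 to 3529 a library, and the deposited tables hold 3488871 (late KPC) to 26749820 (late KPfC) UMIs. Of the barcode sequences, 52 occurred in more than 1 library. Doublets, droplets with more than 1 cell, were not removed. The set's 3′ ends were compared with all annotated transcripts, since Cell Ranger counts reads that fit 1 gene only: 24 members shared no 99-base window of their last 400 bases with another gene. Amy2a2 shared 100% of its windows with Amy2a3 and Amy2a4, Cela2a 70.2% with the overlapping gene model of Ctrc, 1810009J06Rik 65.6% with Gm2663, Try10 12.6% with Gm5409 and Cela3b 5.96% with Cela3a, and Try4 and Try5 shared 1.99% with each other. Values of Amy2a2, Cela2a, Ctrc and 1810009J06Rik are therefore uncertain as values of single genes.

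Promoters of 5 members are printed because these genes went different ways. Ctrb1 and Pnlip had a lower, Prss2 a level and Klk1 a higher share of all UMIs in early KIC acinar barcodes. Cela1 gave 39 of the 52 UMIs of the set in late KPC. The 5 genes were chosen after the values were seen. Each run is the 250 bases before the RefSeq start (GRCm38.p6, printed 5′ to 3′ on the gene's strand), with 3 motifs in capitals wherever they occur on either strand: TATAAA, the core of the TATA box, CACCTG, a form of the E-box bound by bHLH factors, and TGGGAA, the core bound by RBPJ and RBPJL. The last pair are the elements of the binding site of PTF1, the complex of PTF1A and RBPJL that drives acinar genes. The windows are chr8:111691011-111691260 (Ctrb1, minus strand), chr19:58670115-58670364 (Pnlip, plus strand), chr15:100687921-100688170 (Cela1, minus strand), chr6:41521526-41521775 (Prss2, plus strand) and chr7:44225110-44225359 (Klk1, plus strand).
Ctrb1: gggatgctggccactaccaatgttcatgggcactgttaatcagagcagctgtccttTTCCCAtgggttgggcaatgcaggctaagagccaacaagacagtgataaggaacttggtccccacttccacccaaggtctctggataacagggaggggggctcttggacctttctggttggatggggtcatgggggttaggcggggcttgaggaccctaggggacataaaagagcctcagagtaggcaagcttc
Pnlip: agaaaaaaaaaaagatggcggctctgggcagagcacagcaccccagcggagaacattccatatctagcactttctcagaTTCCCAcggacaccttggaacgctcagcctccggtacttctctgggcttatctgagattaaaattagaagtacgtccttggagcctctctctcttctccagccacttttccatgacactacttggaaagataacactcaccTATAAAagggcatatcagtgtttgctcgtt
Cela1: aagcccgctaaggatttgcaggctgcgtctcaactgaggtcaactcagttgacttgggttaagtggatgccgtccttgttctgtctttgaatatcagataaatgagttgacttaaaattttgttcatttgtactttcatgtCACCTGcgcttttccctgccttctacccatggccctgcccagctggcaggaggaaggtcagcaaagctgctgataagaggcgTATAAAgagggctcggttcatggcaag
Prss2: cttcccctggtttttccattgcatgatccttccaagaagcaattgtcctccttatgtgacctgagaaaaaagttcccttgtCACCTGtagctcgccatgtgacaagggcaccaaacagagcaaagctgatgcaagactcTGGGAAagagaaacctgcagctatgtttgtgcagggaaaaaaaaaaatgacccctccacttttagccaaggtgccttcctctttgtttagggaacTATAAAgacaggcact
Klk1: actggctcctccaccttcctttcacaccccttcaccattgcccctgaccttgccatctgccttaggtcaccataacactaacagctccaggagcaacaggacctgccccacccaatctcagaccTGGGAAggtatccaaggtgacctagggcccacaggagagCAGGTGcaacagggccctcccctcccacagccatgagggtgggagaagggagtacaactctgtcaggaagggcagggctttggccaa
Ctrb1 had TGGGAA with its first base in the window 194 bases before the start, and Pnlip had it 171 bases before and TATAAA 30 bases before. Cela1 had CACCTG 109 bases and TATAAA 27 bases before its start. Prss2 held all 3, at 169 (CACCTG), 111 (TGGGAA) and 16 bases (TATAAA), and Klk1 held TGGGAA at 126 and CACCTG at 87 bases. Of the 31 genes, 24 matched the RefSeq table, with 25 promoters. TATAAA was in 36.0% of them and in 12.4% of all 32851 promoters, TGGGAA in 56.0% and 21.6%, and CACCTG in 48.0% and 17.2%, while the general E-box CANNTG, which includes CACCTG, was in 76.0% and 66.2%. A match is a description of these letters and not a site.

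Acinar barcodes of normal pancreas gave most of their UMIs to the 31 genes, and those of early KIC gave fewer. Normal pancreas had 1618 acinar barcodes (67.8% of kept, exact binomial interval 65.9 to 69.7%), early KIC 520 (14.7%, 13.6 to 15.9%) and late KIC 5 (0.598%, 0.194 to 1.39%). Late KPfC had 0 of 2933, which allows a share of up to 0.126%, and late KPC 0 of 1034, up to 0.356%. In normal acinar barcodes the share of UMIs from the set ranged from 30.1 to 91.4%, with a median of 82.3% and quartiles of 79.0 and 84.6%. In early KIC it ranged from 30.2 to 79.1%, with a median of 60.2% and quartiles of 49.95 and 66.4%. The interquartile ranges did not overlap. At 80% or more stood 1124 normal and 0 early KIC barcodes. The lower end of both ranges is set by the 30% rule: 13 normal and 41 early KIC barcodes lay between 25 and 30%, and 10 and 32 between 30 and 35%. Chosen instead by other acinar genes, with none of the 31, acinar barcodes gave 78.9% of summed UMIs in normal pancreas and 46.5% in early KIC, against 79.7 and 61.1% by the rule. These other genes themselves differed between the libraries. Per UMI outside the set, 15 of 27 measured were at least 2-fold lower in early KIC (7.59% of all genes), and Reg2 was higher, at 13.45. The alternative may thus not choose alike in both libraries, which was not tested.

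**Figure D1:**
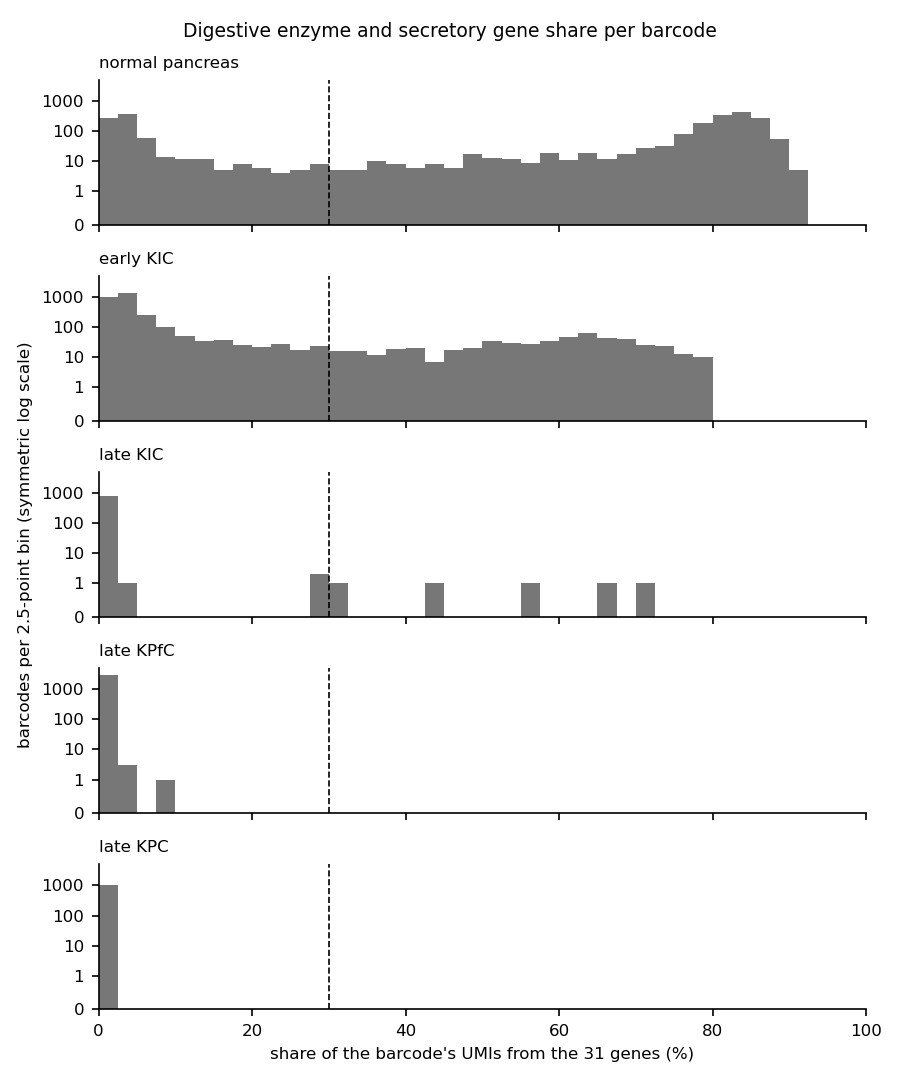
Number of kept barcodes (y axis, symmetric log scale) by the share of their UMIs that came from the 31 genes (x axis, percent), 1 panel for each library; the dashed line is the 30% rule. Normal pancreas has a peak around its acinar median of 82.3%, early KIC a broad group that ends at 79.1%, late KIC 5 barcodes beyond the line, and late KPfC and late KPC none.

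Acinar barcodes of early KIC held fewer enzyme UMIs and, in proportion, more others. A normal acinar barcode held a median of 3225 UMIs of the set and 786 others, and an early KIC one 930.5 and 717. The early KIC library was shallower outside acinar barcodes too, with a median of 1801 UMIs a barcode against 4589 in normal pancreas, so the raw counts also carry library depth. Summed, there were 3.92 enzyme UMIs for each other UMI in normal pancreas and 1.57 in early KIC, 2.49-fold fewer. Median mitochondrial UMIs were 0.180% in normal and 2.39% in early KIC acinar barcodes. Markers of other cells were also higher there: 10 of 10 macrophage markers were detected in both libraries, at 0.402 UMIs per 10000 in normal and 9.13 in early KIC acinar barcodes, 8 of 8 fibroblast markers at 1.66 and 9.59, 10 of 10 duct or tumour epithelium markers at 3.20 and 13.2, and 8 of 8 endocrine markers at 14.4 and 61.5. Red cell markers went from 56.8 to 18.6 and lymphocyte markers from 0.641 to 0.167. Their part in the result was not tested. By marker gate, 102 of 1618 normal and 322 of 520 early KIC acinar barcodes also met the endocrine rule. Without the barcodes that met any other class's rule, an alternative chosen after seeing the data, 1304 normal and 175 early KIC barcodes were left, the summed share was 80.8 and 52.6%, and 6 genes of the set were at least 2-fold lower in early KIC against 3 over all acinar barcodes. The share over all genes was not computed for this alternative.

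By family, chymotrypsins and amylases were lowest in early KIC relative to normal acinar barcodes, as a share of all UMIs. Chymotrypsins went from 17.3 to 10.3% (ratio 0.596) and amylases from 0.340 to 0.203% (0.598). Trypsinogens went from 18.4 to 14.8% (0.801), elastases from 14.97 to 12.3% (0.821), carboxypeptidases from 4.97 to 4.09% (0.822), enzymes and cofactors of fat digestion from 15.3 to 12.2% (0.798) and granule proteins from 5.44 to 4.21% (0.773). The ribonuclease and kallikrein together (ratio 1.04) and the inhibitors (1.08) were not lower.

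Of the 31 genes, 23 had a ratio below 1 and 8 above 1, and 22 and 8 had intervals clear of 1. At least 2-fold lower were 3 of 31, where 1.79% of the 7031 genes measured were that low, and at least 2-fold higher was 1 of 31, where 53.3% of all genes were. The median log2 ratio was -0.18 for the set and 1.06 for all genes. These shares sum to a whole, so fewer enzyme UMIs raise every other gene's share. Counted per UMI outside the set, 30 of 31 had a ratio below 1 and 1 above. On this scale 21 of 31 were at least 2-fold lower (7.59% of all genes) and 1 was higher (15.2%), with medians of -1.12 for the set and 0.13 for all genes.

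Among the chymotrypsins, Ctrb1, whose product cuts after bulky aromatic residues, was the most abundant gene of the set in both libraries. It gave 1581 UMIs per 10000 in the median normal acinar barcode (quartiles 1309 and 1837) and 914.5 in the median early KIC one (719 and 1122). Of early KIC barcodes, 88.7% lay below the lower normal quartile, and the ratio of summed shares was 0.592 (0.588 to 0.596). Ctrl, a chymotrypsin-like protease, had medians of 213 and 94.8 and a ratio of 0.562 (0.553 to 0.571). Ctrc, chymotrypsin C, which degrades trypsinogen, went the other way as a share of all UMIs: its median was 3.35 in normal and 16.1 in early KIC, and its summed ratio 1.71 (1.64 to 1.79). Per UMI outside the set the Ctrc ratio was 0.896 (0.859 to 0.934). Its summed level in normal pancreas, 12.6 per 10000, was above even its upper quartile of 7.40.

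The trypsinogens, all 6 of which lie on chromosome 6, split. Try4 had medians of 317 in normal and 131 in early KIC (ratio 0.506, 0.499 to 0.513), and 2210010C04Rik 362 and 193 (0.550, 0.543 to 0.557). For 2210010C04Rik, 96.3% of early KIC barcodes lay below the lower normal quartile. Prss2 was level as a share of all UMIs: its medians were 665 and 623 and its ratio 1.02 (1.01 to 1.03), or 0.532 per UMI outside the set. Try5 (medians 350.3 and 259.7, ratio 0.889) and Try10 (27.9 and 20.4, ratio 0.975) stood between. The sixth, 1810009J06Rik, was the member called higher, at 4.29 (3.61 to 5.07), with 386 UMIs in normal and 218 in early KIC, and is described further on.

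Of the elastases, which are serine proteases, Cela1 had medians of 412 and 259 (ratio 0.687) and Cela3b 399 and 279.5 (0.723). Cela2a had medians of 587.5 and 382 but a summed ratio of 0.960, a difference between median and sum taken up below. The carboxypeptidases trim residues from the end of a protein chain: Cpa1, which takes aromatic and aliphatic ones, had medians of 261 and 179 (0.721), and Cpb1, which takes basic ones, 216 and 218 (0.949).

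Among the genes of fat digestion, Pnlip, the main triglyceride lipase, was lowest. It had a median of 376 in normal (quartiles 313 and 442) and 178 in early KIC (117 and 236), a ratio of 0.478 (0.472 to 0.484), and 93.7% of early KIC barcodes lay below the lower normal quartile. Clps, colipase, which anchors that lipase to fat droplets, had medians of 865.5 and 711 (0.881). Pnliprp1, a lipase-related protein, had medians of 172 and 187 (1.08), and its relative Pnliprp2 27.6 and 17.4 (0.696). Cel, the bile salt-activated lipase, had 69.6 and 62.4 (0.912), and Pla2g1b, a phospholipase, 33.4 and 22.6 (0.807). The lipase and its cofactor thus differed in ratio within 1 enzyme system, 0.478 against 0.881.

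The amylases, which digest starch, had low counts in both libraries, where reads that fit more than 1 gene are not counted. Amy2a3 and Amy2a4, outside the set, share the 3′ windows of Amy2a2. They gave 8555 and 6955 UMIs in normal and 613 and 406 in early KIC acinar barcodes. Amy1 gave 8397 UMIs in normal and 444 in early KIC, or 8.80 and 3.53 per 10000, the lowest ratio of the set at 0.401 (0.364 to 0.442). Amy2a2 gave 12.8 and 5.77 per 10000 (0.450, 0.417 to 0.485), and Amy2a5 12.35 and 11 (0.891, 0.842 to 0.942). Amy1, Amy2a2 and Pnlip were the 3 members called lower, with Amy2a2 uncertain as a value of a single gene.

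Klk1, tissue kallikrein, a protease that releases kinins, was higher as a share of all UMIs: its median was 52.7 in normal (quartiles 38.6 and 70.0) and 93.6 in early KIC (60.4 and 138), 69.0% of early KIC barcodes lay above the upper normal quartile, and the ratio was 1.74 (1.71 to 1.78). On that scale the median log2 ratio of all genes was 1.06, above the 0.80 of Klk1. Per UMI outside the set the Klk1 ratio was 0.911 (0.894 to 0.930). Rnase1, which degrades RNA, had medians of 168 and 127 (0.818). Of the granule proteins, the lectin Zg16 had 124 and 79.2 (0.657), syncollin (Sycn) 393 and 288 (0.785), Gp2, a membrane glycoprotein, 30.8 and 32.1 (1.05) and Cuzd1, another membrane protein, 6.09 and 5.95 (0.883). Both inhibitors were slightly higher as a share of all UMIs: Spink1, which blocks trypsin inside the cell, had medians of 58.3 and 62.4 (1.08), and the serpin Serpini2 3.41 and 4.33 (1.14), but each was above 1 in only 8 of 11 ways of choosing or weighting barcodes. Per UMI outside the set their ratios were 0.563 and 0.595.

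**Figure D2:**
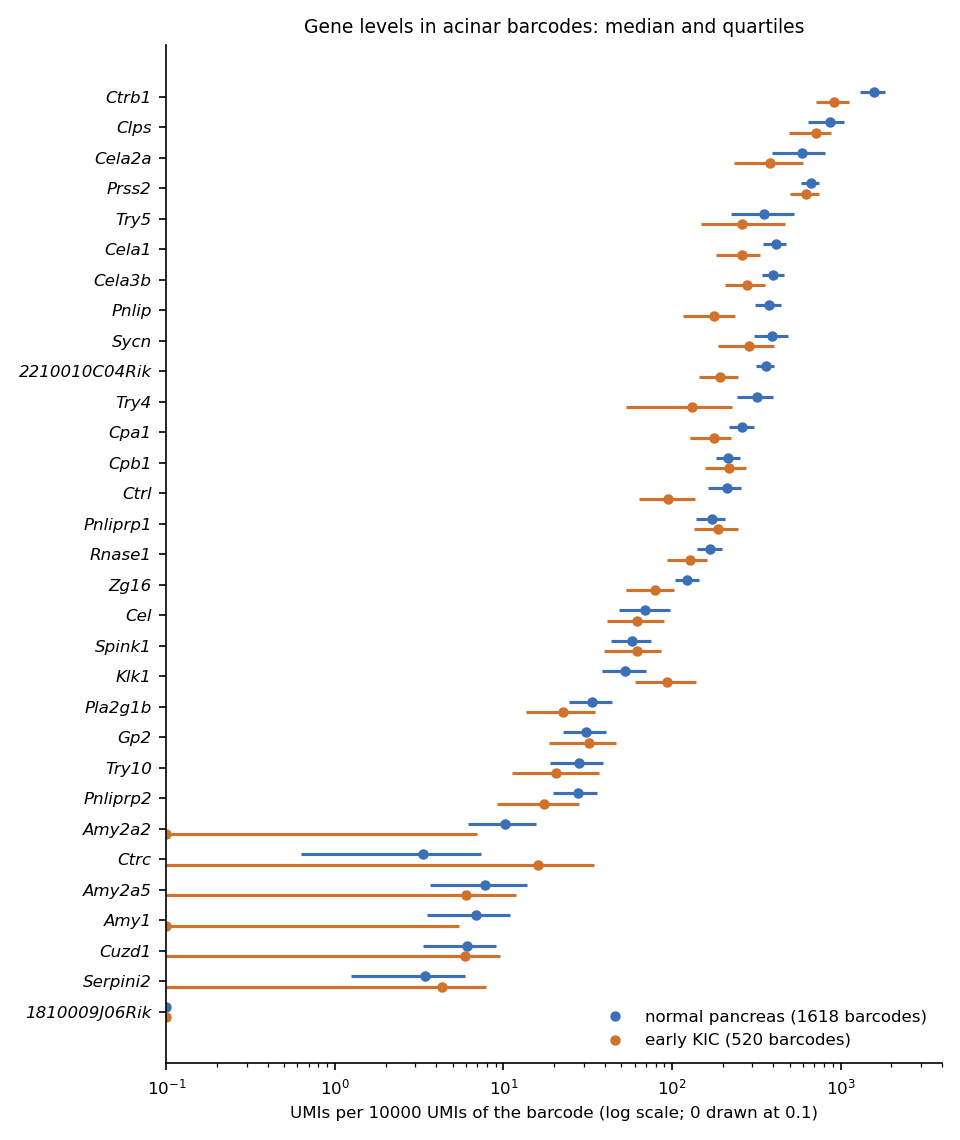
UMIs per 10000 UMIs of a barcode (x axis, log scale) for each gene (y axis, ordered by level in normal pancreas); points are medians and bars quartiles over 1618 normal (blue) and 520 early KIC (orange) acinar barcodes, and 0 is drawn at 0.1. Ctrb1, Pnlip and Try4 lie lower in early KIC and Klk1 and Ctrc higher, while Prss2 and Cpb1 nearly coincide.

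Within the enzyme mix, that is, each gene as a share of the set's own UMIs, the loss of total share is taken out. On this scale 12 genes were lower and 19 higher in early KIC; 0 of 31 were at least 2-fold lower (1.21% of all genes) and 3 higher (72.8%). The 3 were Klk1 (2.27), Ctrc (2.23) and 1810009J06Rik (5.59). The lowest were Amy1 (0.523), Amy2a2 (0.587), Pnlip (0.623), Try4 (0.659), 2210010C04Rik (0.717), Ctrl (0.733) and Ctrb1 (0.771). Prss2 made up 8.48% of the mix in normal and 11.2% in early KIC, and Clps 10.2 and 11.7%. Ctrb1, at 18.8%, made up the largest part in normal pancreas and, at 14.5%, in early KIC.

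Total share and library differ together, so the mix was compared between barcodes of like total share, in bands of 30 to 50%, 50 to 65% and 65 to 80%. The bands held 65, 81 and 348 normal and 130, 235 and 155 early KIC barcodes. Their median UMIs outside the set were 2050, 1732 and 1149 in normal pancreas, where all acinar barcodes had 786. In early KIC they were 1050, 655 and 577, where all had 717. Barcodes of like share were thus not alike in the amount of other RNA. In all 3 bands 20 of 31 genes kept 1 direction, 10 higher and 10 lower in early KIC. Klk1 was higher by a log2 ratio of 0.996, 1.73 and 0.998, Ctrc by 1.23, 1.02 and 1.22 and Prss2 by 0.54, 0.41 and 0.45. Pnlip was lower in each band, at -0.85, -0.58 and -0.60, as were 2210010C04Rik (-0.43, -0.38 and -0.55), Ctrb1 (-0.22, -0.23 and -0.58) and Amy1 (-1.16, -1.06 and -0.44). Spink1 was higher in the lower bands (0.84 and 0.66) and not in the top one (-0.09). Within normal pancreas, 30 genes differed by log2 ratios of -0.30 (Serpini2) to 0.58 (Try5) between the 30 to 50% band and barcodes over 80%, with Pnlip at -0.11, Klk1 at -0.02 and Ctrb1 at 0.05. The other gene, 1810009J06Rik, differed by 5.01.

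**Figure D3:**
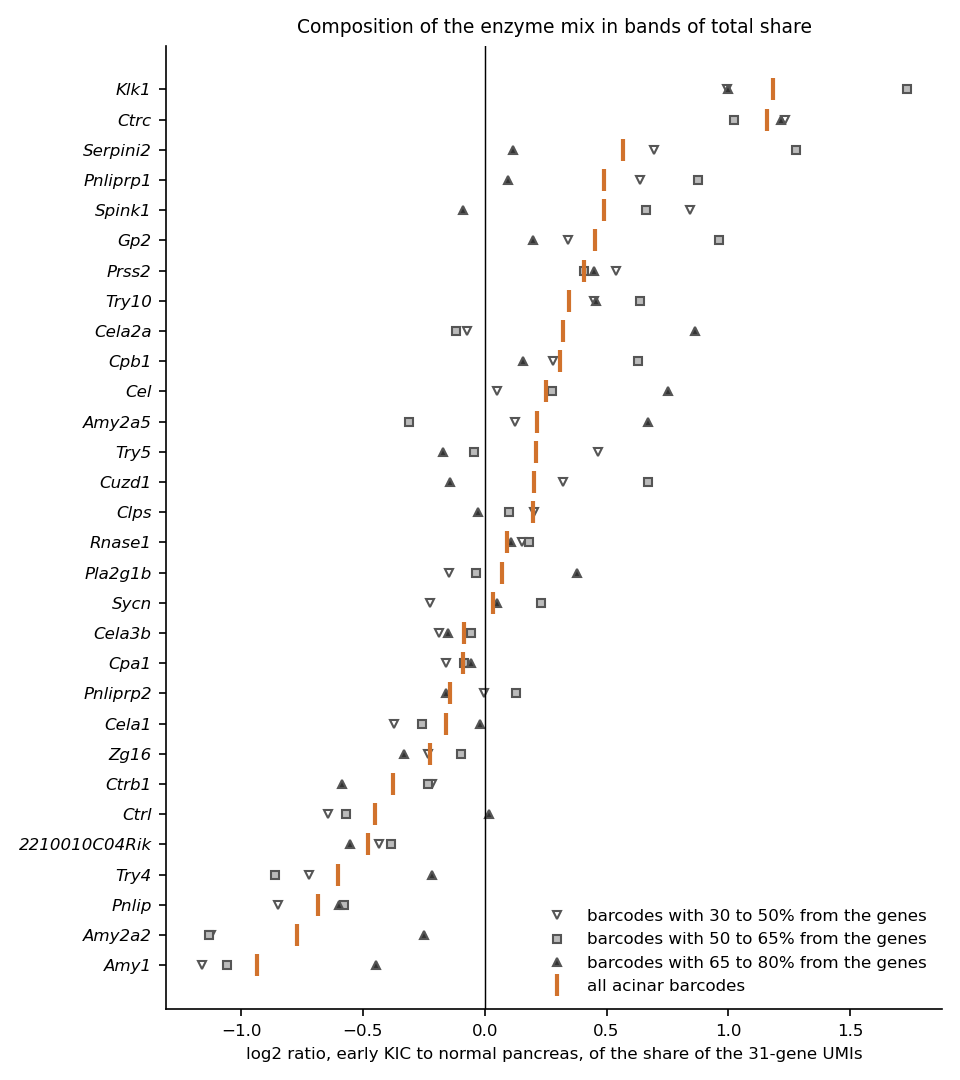
Log2 ratio of early KIC to normal pancreas for each gene's share of the set's UMIs (x axis), in 3 bands of total share (grey symbols) and over all acinar barcodes (orange bars); 1810009J06Rik is left out because it had no UMI in an early KIC band. Klk1, Ctrc and Prss2 lie right of 0 and Amy1, Amy2a2, Pnlip and Try4 left of 0 in every band.

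Genes differed in how evenly acinar barcodes carried them. Beyond the spread that counting gives, the share of the mix varied least in normal pancreas for Prss2 (coefficient of variation 13.8%) and 2210010C04Rik (14.7%), and more for Cela2a (42.8%), Try5 (64.3%), Amy2a5 (82.0%) and Ctrc (174%). In early KIC the same measure was 24.5% for Prss2, 25.6% for 2210010C04Rik, 60.3% for Cela2a, 96.7% for Try5 and 69.4% for Try4, which had 29.3% in normal pancreas, and 26 of 31 genes had a wider spread than in normal pancreas. The other 5 had a narrower one: Ctrc (77.7%), Cel (41.3 against 51.2%), Amy1 (34.6 against 50.9%), Clps (35.9 against 39.2%) and 1810009J06Rik. Across 1618 normal and 505 early KIC acinar barcodes with at least 500 UMIs of the set, 124 of 171 gene pairs had Spearman correlations of the same sign in both libraries. The pairs named here were picked after their values were seen, shares of a whole push each other down, and barcodes of 1 library share its free RNA. Cela2a and Ctrb1 ran against each other, with rho of -0.68 in normal and -0.64 in early KIC. Cela2a ran with Cel (0.72 and 0.31) and with Ctrl (0.54 and 0.43).

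Cela2a also differed with depth. In early KIC, 33 acinar barcodes with at least 5000 UMIs, a line drawn after seeing the data, held 27.9% of acinar UMIs and had a median enzyme share of 74.7%, against 59.4% in the 487 shallower ones. Cela2a made up a median of 15.5% of the mix in the deep barcodes and 6.13% in the others, Cel 1.63 and 1.06%, and Ctrb1 10.4 and 16.6%. In normal pancreas the 595 deep and 1023 shallower barcodes had medians of 7.75 and 7.34% for Cela2a and 19.6 and 20.1% for Ctrb1. Sums weight deep barcodes, so the summed ratio of 0.960 for Cela2a stands above the ratio of its medians.

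1810009J06Rik UMIs lay in few barcodes. A UMI of it was found in 32 of 1618 normal and 26 of 520 early KIC acinar barcodes, and 10 barcodes held 91.7% of its UMIs in normal pancreas and 85.3% in early KIC. Barcodes with at least 5 UMIs of it, a line drawn after seeing the data, numbered 8 and 11. Their median enzyme share was 60.8% in normal pancreas (45.5 to 81.3%) and 45.7% in early KIC (31.7 to 56.0%), both below their library's median. In them Try5, another trypsinogen, made up 18.3 and 28.4% of the mix, 3.45 and 4.79 times its part in the remaining acinar barcodes, and Spink1 1.67 and 3.81%, 2.31 and 3.88 times. Clps was lower in them, at 0.458 and 0.242 times, and Zg16 at 0.441 and 0.326 times. Of its 218 early KIC UMIs, 193 lay in those 11 barcodes. The bands of total share went opposite ways: within the mix its log2 ratio was 2.78 in the 30 to 50% band and -1.49 in the 50 to 65% band, and the 65 to 80% band had 142 UMIs in normal pancreas and 0 in early KIC.

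Genes outside the set gave a mixed picture. Of 27 other acinar genes measured, 3 were at least 2-fold lower in early KIC (Gm5771, at 0.200 on 76 normal and 2 early KIC UMIs, Prss3, at 0.420, and Amy2a4, at 0.443) and 4 higher, with a median log2 ratio of -0.32. The 4 were Reg2 (25.7), Dmbt1 (2.70), Nupr1 (2.20) and Reg1 (2.09), the Reg genes being known for induction in injured pancreas. Reg2 gave 3639 UMIs in normal and 12343 in early KIC acinar barcodes. Of 9 acinar transcription factors measured, 0 were lower and 5 higher (Mecom, Foxp2, Gata6, Nr5a2 and Xbp1), with a median of 1.42; Ptf1a (ratio 1.42, 0.896 to 2.17) and Rbpjl (1.33, 0.881 to 1.94), on 26 and 32 early KIC UMIs, could not be told from 1. Of 17 genes of granules and secretion, 0 were lower and 6 higher, with a median of 0.59. On this scale all genes had a median of 1.06 and 53.3% of them were at least 2-fold higher, so the 5 of 9 transcription factors are near that share and the 6 of 17 secretion genes below it. Per UMI outside the set, 15 of 27, 2 of 9 and 2 of 17 genes of the 3 lists were lower, where 7.59% of all genes were, and 1, 2 and 3 were higher, where 15.2% were. The higher counts of transcription factors and secretion genes are near that background.

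Late KIC had 5 acinar barcodes, with enzyme shares of 70.7, 66.2, 55.6, 42.5 and 30.7%. By marker gate, the one at 70.7% also met the red cell rule. Those at 66.2 and 42.5% met the duct or tumour epithelium rule. In each of the 5, Ctrb1 led the mix, at 28.7 to 44.0%, followed by Prss2 or Clps. In normal pancreas the quartiles of Ctrb1 were 16.8 and 22.6% of the mix, and all 5 lay above them. So few barcodes allow no more than this description.

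Outside acinar barcodes the same transcripts were found in barcodes of other cell classes. Their level is here called the free RNA level. Whether this RNA was free or came from cells in the same droplet was not tested. Non-acinar barcodes, those under 30%, gave 409 UMIs of the set per 10000 in normal pancreas (Poisson interval 407.5 to 411) and 401 (399 to 402) in early KIC, and every one of the 768 and 3009 barcodes held some. The medians over barcodes were 293.6 and 294.4. Median depths were 4589 and 1801 UMIs a non-acinar barcode, so like levels are not like counts a barcode. Per 10000 UMIs the level was nearly equal in both libraries, though acinar barcodes were 67.8% of kept barcodes in one and 14.7% in the other. By marker gate, a class called from at least 3 UMIs of its markers, it was 407 in macrophage barcodes and 379.5 in fibroblast barcodes of normal pancreas, and 406 and 374 in early KIC, where duct or tumour epithelium had 396. Other gates ranged more widely: endocrine barcodes had 311 in normal pancreas and 270.5 in early KIC, red cell barcodes 587 and 473, and barcodes in no gate 543 and 549. In late KIC it was 5.46 (5.33 to 5.59), in late KPfC 2.77 (2.71 to 2.84) and in late KPC 0.178 (0.133 to 0.233), on 52 UMIs. The 24 lymphocyte barcodes of late KPC held 0.

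A few barcodes carried much of the late level. In late KIC the 3 richest non-acinar barcodes held 83.6% of these UMIs, 2 of them with enzyme shares of 29.0 and 28.4%, just under the rule, and without them the level was 0.895. In late KPfC the 3 richest held 49.6%, 1 alone held 2440 Ctrb1 UMIs of 2965 from the set, and without them the level was 1.40. In late KPC leaving out 3 gave 0.152. These 3 were left out as an alternative chosen after seeing the data.

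The free mix resembled the acinar mix of its own library. Each gene's share of the set's UMIs outside acinar barcodes was 0.754 to 1.26 times that inside in normal pancreas, over 30 genes, and 0.524 to 1.17 times in early KIC, over 31. In both libraries 7 genes were above 1 outside, among them Clps (1.23 and 1.17), Prss2 (1.19 and 1.14) and Cela1 (1.11 and 1.09), and 16 were below, among them Spink1 (0.754 and 0.715), Gp2 (0.796 and 0.789) and Ctrb1 (0.889 and 0.902). Klk1 (1.26 and 0.951) and Amy2a5 (1.17 and 0.807) changed side. Non-acinar barcodes include 60 in normal pancreas and 241 in early KIC with 10 to 30% of UMIs from the set. In barcodes under 10% the spread was wider. It ran from 0.651 (Cpa1) to 1.47 (Klk1) in normal pancreas, 1810009J06Rik aside, and from 0.185 (1810009J06Rik) to 1.30 (Clps) in early KIC. 1810009J06Rik gave 0 free UMIs in normal pancreas, where the acinar mix would give 8.76, and 42 in early KIC, where it would give 80.1. Set against normal acinar barcodes, early KIC free RNA held 2.93 times as much of 1810009J06Rik, 2.54 of Ctrc, 2.16 of Klk1 and 1.52 of Prss2. Of the 42 UMIs of 1810009J06Rik, 28 lay in 3 barcodes. In the late libraries the same ratio was led by Try5 (2.72), Ctrb1 (2.08), Prss2 (1.99) and Klk1 (1.84) in late KIC and by Ctrb1 (2.98), Prss2 (1.80), Gp2 (1.67) and Pnliprp2 (1.63) in late KPfC. That order rests on the 3 richest barcodes. Without them, late KIC had Pla2g1b at 4.17, Cela1 at 4.16 and Klk1 at 3.16, with Prss2 at 1.44, Ctrb1 at 1.29 and Try5 at 1.22. Late KPfC then had Cela1 at 2.86, Pnliprp2 at 2.71, Gp2 at 2.19, Prss2 at 2.097 and Ctrb1 at 1.97.

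**Figure D4:**
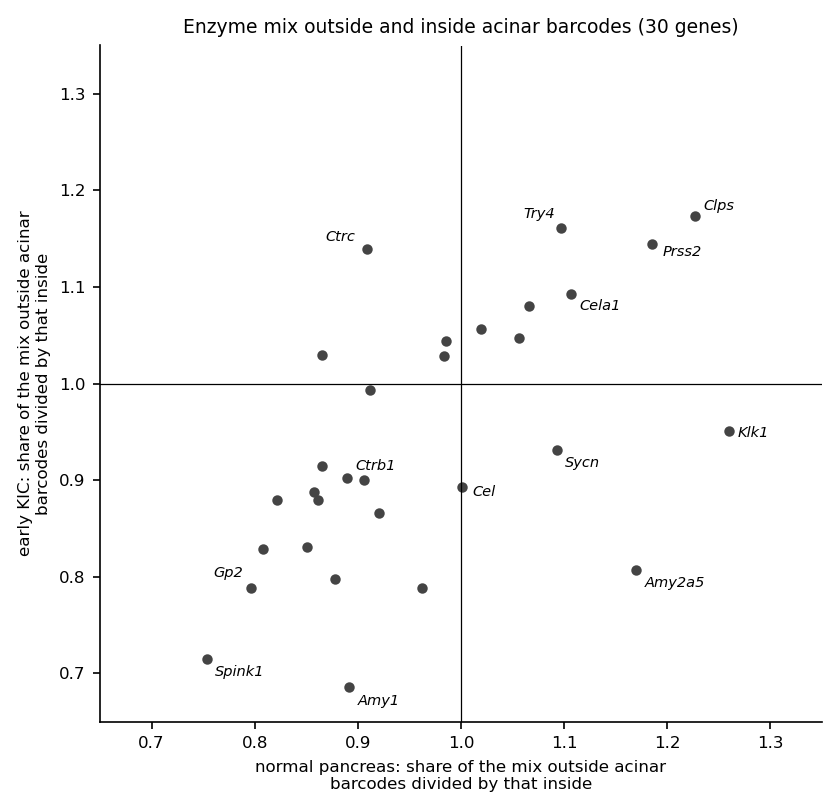
For 30 genes, the share of the set's UMIs outside acinar barcodes divided by that inside, in normal pancreas (x axis) and early KIC (y axis); lines mark equality and 1810009J06Rik is left out. Clps, Prss2, Try4 and Cela1 lie above 1 in both libraries, Spink1 and Gp2 below 1 in both, and Klk1 and Amy2a5 above 1 in normal pancreas only.

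Cela1 led the set in late KPC, and its level differed between marker gates in the late tumours. In late KPC it gave 39 of the 52 UMIs of the set, 75%, where it is 5.27% of the normal acinar mix, a ratio of 14.2. That share rests on only 13 UMIs of the other genes. The level of Cela1 in late KPC, 0.133 UMIs per 10000, was the lowest of the 5 libraries. It was 0.232 in late KIC, 0.2125 in late KPfC, 20.6 in early KIC and 23.9 in normal pancreas. Over all non-acinar barcodes Cela1 made up 4.26% of the mix in late KIC, below that 5.27%, and 7.66% in late KPfC. With the 3 richest barcodes left out it made up 21.9% in late KIC and 15.04% in late KPfC. It was also higher in fibroblast and in duct or tumour epithelium barcodes than in macrophage barcodes; this comparison was made after its values were seen and, unless said otherwise, without the 3 richest barcodes. In late KPfC it stood at 0.541 UMIs per 10000 in 163 fibroblast barcodes and 0.0733 in 1870 macrophage barcodes, 7.38-fold apart (5.64 to 9.66), and the 30 other genes at 0.729 and 1.06, a ratio of 0.688 (0.582 to 0.809). In late KIC the fibroblast to macrophage ratio was 4.81 (2.85 to 8.43) for Cela1 and 0.778 (0.593 to 1.01) for the others. In late KPC it was 6.82 (2.5 to 21.5) for Cela1, on 15 and 6 UMIs, with 0 and 2 UMIs of the others. Duct or tumour epithelium barcodes had 2.21, 5.97 and 7.57 times the macrophage level of Cela1 in late KIC, late KPfC and late KPC, and the other genes 0.762 (0.639 to 0.913) times in late KIC and 1.07 (0.983 to 1.18) times in late KPfC. Over all barcodes the duct or tumour epithelium ratio of the other genes was 10.5 in late KIC and 6.03 in late KPfC, against 2.89 and 6.06 for Cela1. In that class Cela1 was thus below the rest in late KIC and level with it in late KPfC, and stood above it only once the richest barcodes were left out. In fibroblast barcodes it was 1.61 for the others and 7.34 for Cela1 in late KPfC, and in late KIC it was the same with and without them. Cela1 was not alone in duct or tumour epithelium barcodes. Over all barcodes Pla2g1b stood there at 0.0348 UMIs per 10000 in late KIC (25 UMIs) and 0.0299 in late KPfC (19 UMIs). In macrophage barcodes it stood at 0.00468 and 0.000686, on 1 UMI each. Fibroblast barcodes of both libraries held 1 Pla2g1b UMI each, and late KPC held 0. In normal pancreas and early KIC, where the free level is high, Cela1 followed the rest: its fibroblast to macrophage ratio was 0.877 and 0.918, and that of the others 0.882 and 0.922.

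Cela1 UMIs were spread over many barcodes. With the 3 richest left out, 70 of 163 fibroblast barcodes of late KPfC had at least 1, 31 of 83 in late KIC and 14 of 107 in late KPC. Median depths differed: fibroblast and macrophage barcodes had 14365 and 6846 UMIs in late KIC, 12295 and 7392 in late KPfC and 3180 and 2268 in late KPC, so levels per 10000 UMIs are compared here and not these counts of barcodes. Cela1 shared no 3′ window with another annotated gene.

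**Figure D5:**
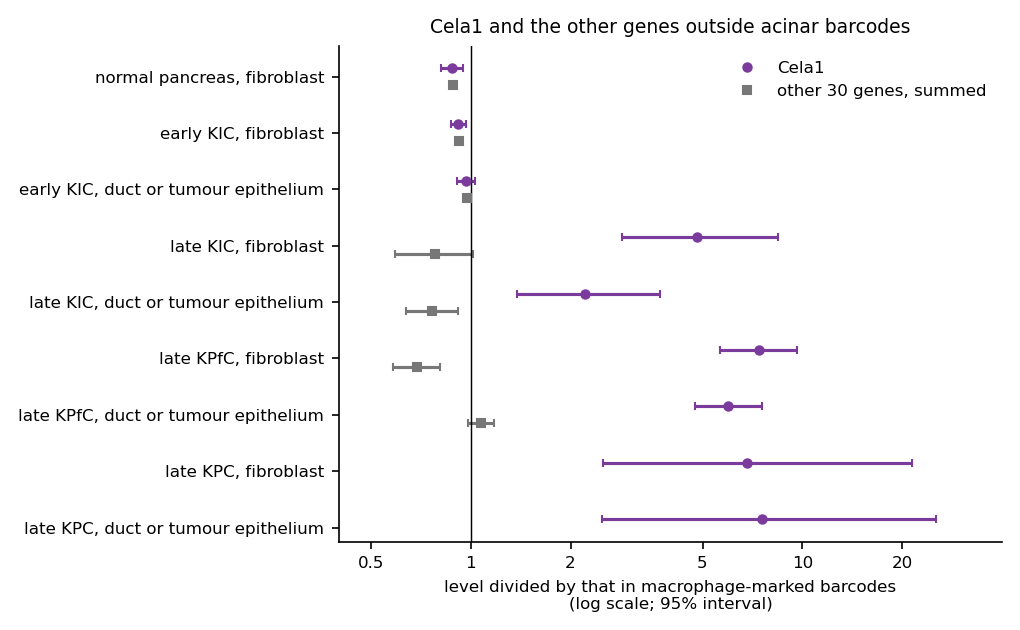
Level of Cela1 (purple) and of the other 30 genes summed (grey) in fibroblast and in duct or tumour epithelium barcodes, divided by the level in macrophage barcodes of the same library (x axis, log scale), with 95% intervals for counting error; the 3 richest barcodes of each library are left out, and the other genes are not drawn for late KPC, where they had under 20 UMIs. Cela1 lies near 1 in normal pancreas and early KIC and at 2.21 to 7.57 in the late libraries, while the other genes lie between 0.688 and 1.07; over all barcodes their duct or tumour epithelium ratios are 10.5 in late KIC and 6.03 in late KPfC.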

How the data were processed

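Values are UMI counts per gene and barcode as deposited: whole-number counts that the authors obtained from Cell Ranger 2.1.1 and GRCm38, per the submitters' processing notes. Which annotation release it counted on is not stated. The 31 genes, the other lists and the markers were chosen with earlier results of these data known. Barcodes were kept with at least 200 genes, 500 UMIs and at most 20% mitochondrial UMIs. UMIs were summed over barcodes and divided by all UMIs, by UMIs outside the set, or by UMIs of the set. Intervals were exact: Clopper-Pearson for shares, Poisson for levels and conditional binomial for ratios, the last tested on simulated counts. A marker gate needed at least 3 UMIs from at least 2 genes of a class and 3 times the next class. Named were genes with at least 1% of the mix in normal pancreas or early KIC, the 6 lowest and 6 highest ratios, and up to 4 leading genes of each free mix; the other members are given by role. 3′ windows and gene positions came from GENCODE M21, promoters from RefSeq GRCm38.p6. Python 3.11.15, numpy 2.4.6, scipy 1.17.1, pandas 2.3.3 and matplotlib 3.10.9 were used. Alternatives were other acinar rules, barcode filters, scalings, weightings and minimum counts. Deposited totals ran from 3488871 to 26749820 UMIs a library.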

Additional observations from a re-analysis of the deposited data

How the results depend on the processing

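Under each alternative, including the choice by other acinar genes, which may not choose alike in both libraries, the summed enzyme share of acinar barcodes was lower in early KIC. In normal pancreas and early KIC it was 81.2 and 66.6% with a 50% rule, 79.0 and 56.4% with a 20% rule, 77.4 and 60.8% with at least 500 genes and at most 10% mitochondrial UMIs, 78.9 and 46.5% in barcodes chosen by other acinar genes, 81.9 and 64.7% without barcodes holding 3 UMIs of another class (191 and 4 left), 80.8 and 52.6% without those meeting another class's gate (1304 and 175 left) and 79.3 and 58.8% without the 10 deepest of each library, the last 2 chosen after seeing the data. Counts past 2-fold moved more. Genes lower in early KIC numbered 3, and became 2 with a 50% rule (Pnlip at -0.94), 2 with at least 500 genes and at most 10% mitochondrial UMIs (Amy2a2 at -0.96), 4 with a 20% rule, 7 in barcodes chosen by other acinar genes, 5 and 6 without the barcodes of another class by these 2 rules, 5 with each barcode weighted equally, 5 after thinning to 1000 UMIs, 21 per UMI outside the set, 0 as shares of the mix, 0 in bands of total share and 1 with trypsinogens and amylases each summed as near-identical copies. Genes higher numbered 1, and became 0 with a 50% rule, 3 as shares of the mix, 2 in bands and 0 with copies summed. The share over all genes was computed for the main rule only. Lower and higher were 1.79 and 53.3% of all genes by share of all UMIs and 7.59 and 15.2% per UMI outside the set. By share of the mix they were 1.21 and 72.8%. The other counts have no such share to be read against. 1810009J06Rik reversed in bands, at a log2 ratio of -0.80, an average that includes a band with 0 early KIC UMIs set to the floor of 3 counts; the lowest band alone was higher in early KIC. Over 11 choices and weightings of barcodes, the choice that leaves 4 not among them, Pnlip ran from -1.46 to -0.72, Amy1 from -1.93 to -0.93, Ctrb1 from -1.12 to -0.39, Ctrc from 0.40 to 1.11 and Klk1 from 0.40 to 1.20, each on 1 side of 0. The scale per UMI outside the set is not among the 11. On it Ctrc was at -0.16 and Klk1 at -0.13, so the direction of these genes depends on the scale. Prss2 was below 0 in 6 and above in 5.

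The free level per 10000 UMIs, in the order normal pancreas, early KIC, late KIC, late KPfC and late KPC, was 409, 401, 5.46, 2.77 and 0.178. It was 282, 291, 1.13, 2.77 and 0.178 in barcodes under 10%, 427, 406, 0.915, 1.13 and 0.0597 in macrophage and lymphocyte gates, 391.8, 395, 0.895, 1.40 and 0.152 without the 3 richest barcodes, and 293.6, 294.4, 0.650, 0 and 0 as medians. The fall from early KIC to the late libraries held in each. No paired analysis was possible because each group has 1 library. Leaving out a replicate was not possible for the same reason. Depth limits the amylases, Serpini2, the transcription factors and every value of late KPC, where the whole set gave 52 UMIs.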
